A study of Mus musculus with 12 samples.

Results

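Axon guidance ligands and their receptors were followed in N2A, a neuroblastoma line of the mouse that puts out neurites when it differentiates, after stable depletion of the lncRNA Dali and after treatment with retinoic acid (RA). The members were the genes whose symbol names a class 3 to class 7 semaphorin, a neuropilin, a plexin, a Slit, a Robo, a netrin, Dcc, an Unc5 receptor, an ephrin or an Eph receptor. They came to 75 of 35556 probe sets and 70 of 19938 genes. Unc50 and Unc5cl entered by their name stem only and are not guidance receptors, which left 68 genes of the pathways themselves. Ephb2 was not analysed here.

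Total RNA of 12 samples was hybridised to Affymetrix Mouse Gene 1.0 ST arrays, with 3 arrays in each of 4 groups. One group carried a Dali knockdown construct as a stable transfection, a vector that expresses a short hairpin RNA (KD cells), and was differentiated with RA. Another carried a scrambled, non-targeting vector (control cells) and had the same RA treatment. The remaining groups were proliferating KD cells and proliferating control cells. All of them had been selected for hygromycin resistance. RA was all-trans retinoic acid at 20 uM for 72 h in medium with 2% serum, against 10% serum in the growth medium, so the RA and the serum change cannot be told apart. The lines were drug-resistant clones, and the paper describes several KD lines beside a single non-targeting control line. A difference between isolated lines therefore cannot be told apart from an effect of the knockdown. Whether the arrays within a group came from different clones or cultures is not stated in the labels, and the p-values therefore cover the spread between these samples alone. No probe set was assigned to Dali, and the knockdown could not be checked on these arrays.

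Guidance cues steer a growing axon by binding receptors on its growth cone, which change the actin and microtubule cytoskeleton there. Secreted class 3 semaphorins mostly bind neuropilins that pair with plexins as the signalling subunit, while membrane semaphorins bind plexins directly. Netrins attract through Dcc and repel through Unc5 receptors, Slits repel through Robos, and ephrins on 1 cell signal to Eph receptors on another, with signals also running backwards into the ephrin-bearing cell.

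Most sympathoadrenal markers of a neuroblastoma line read above the array median: 14 of 16 measured did so in each of the 4 groups, and Nefl and Nefm did not. In each group 4 of 10 fibroblast markers, 1 of 9 glial markers and none of 8 immune and endothelial markers did so too. The correlation between arrays was at least 0.992 within groups and 0.986 to 0.993 between groups. The mean log2 level of the sympathoadrenal markers was 9.28 to 9.38 in KD cells after RA, 9.37 to 9.40 in control cells after RA, 9.62 to 9.66 in proliferating KD cells and 9.48 to 9.53 in proliferating control cells. Of these 16 markers, 1 was called higher (Dbh) and 2 lower (Phox2a and Chgb) in KD cells after RA, and 5 higher (Hand2, Isl1, Th, Dbh and Mycn) and none lower in proliferating KD cells. Over all tested genes, 3.71% were called higher and 4.0% lower after RA, and 3.96% and 3.0% in proliferating cells. The marker changes in proliferating KD cells ran from -0.30 to 0.62, with 9 of 16 above 0. With RA, Gata2, Th, Dbh and Chgb were called lower in both kinds of cell and Mycn in KD cells. The mean of 10 fibroblast markers was 6.25 to 6.44, 6.37 to 6.49, 6.25 to 6.30 and 6.41 to 6.45 in the same order of groups, with 1 of them, Pdgfrb, called lower in KD cells in both states. The mean of the fibroblast markers thus lay below control on every KD array of proliferating cells and overlapped after RA. Pdgfrb differed most in proliferating cells (-0.85). The median over the 10 markers was -0.06 there, and 1 of them lay above 0. The mean of 9 glial markers was 6.55 to 6.69 over all arrays. The mean of 8 immune and endothelial markers was 6.15 to 6.25 after RA and 6.24 to 6.34 in proliferating cells, with 1 of them, Pecam1, called lower with RA in both kinds of cell. The part of these differences in the results below was not tested, and in bulk RNA fewer cells of a type and less RNA per cell cannot be told apart.

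Values are log2 expression levels, each probe set on its own scale. Calls required an adjusted p under 0.05 in limma (Benjamini-Hochberg) and a change of at least 1.3-fold (0.379 on the log2 scale), among the 9969 more variable genes of the table. These held 34 of the 70 members. They comprised 2 of 7 class 3 semaphorins, 7 of 13 class 4 to 7 semaphorins, both neuropilins, 6 of 9 plexins, 1 of 3 Slits, 1 of 4 Robos, 2 of 4 netrins, 2 of 5 Dcc and Unc5 receptors, 2 of 9 EphA receptors, 3 of 4 EphB receptors, 4 of 5 ephrin-A ligands, 1 of 3 ephrin-B ligands and Unc50. Changes of the other members are given from the same fit without the filter.

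The first question was which guidance genes differed between KD and control cells. The same 3 members were called in both states, all of them receptors and all lower in KD cells: the netrin receptor gene Unc5a, the neuropilin gene Nrp2 and the plexin gene Plxnd1. No member was called higher in either state.

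Unc5a, which encodes a repulsive netrin receptor with a cytoplasmic death domain, differed most. After RA it stood at 8.13, 8.10 and 8.19 on the 3 KD arrays, against 9.10, 9.16 and 9.08 on the control arrays. In proliferating cells the levels were 7.53, 7.66 and 7.54 on KD arrays and 8.47, 8.58 and 8.56 on control arrays. Every KD array lay below every control array of the same state, and KD cells after RA remained below untreated control cells. The difference was -0.97 ± 0.05 on the log2 scale (SE, n = 3 each) after RA, which is 1.96-fold lower (limma adjusted p = 3.55e-07), and -0.96 ± 0.05 in proliferating cells, which is 1.95-fold lower (adjusted p = 4.01e-07).

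Nrp2, the co-receptor that takes up class 3 semaphorins such as Sema3f, was lower by a smaller amount. KD cells after RA had levels of 9.115, 9.09 and 8.95, against 9.60, 9.61 and 9.55 in control cells. Proliferating KD cells had levels of 8.93, 8.96 and 8.96, against 9.69, 9.69 and 9.56 in control cells. The groups did not overlap in either state. The difference was -0.54 ± 0.05 after RA (1.45-fold lower, limma adjusted p = 3.4e-05) and -0.70 ± 0.05 in proliferating cells (1.62-fold lower, adjusted p = 5.31e-06). Nrp1, its paralogue, was not called and differed by -0.13 ± 0.06 after RA and 0.16 ± 0.06 in proliferating cells.

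Plxnd1 encodes the plexin that binds Sema3e without a neuropilin and is known best from vascular and thalamic wiring. Its levels were 8.29, 8.15 and 8.13 in KD cells after RA and 8.70, 8.74 and 8.69 in control cells after RA. Without RA they were 7.86, 7.89 and 7.89 in KD cells and 8.49, 8.36 and 8.33 in control cells. All KD arrays again lay below the control arrays of their state, and KD cells after RA lay close to but below proliferating control cells. The difference was -0.52 ± 0.06 in both the RA-treated comparison (1.43-fold lower, limma adjusted p = 4.77e-05) and, at -0.51 ± 0.06, the proliferating one (1.42-fold lower, adjusted p = 5.3e-05).

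**Figure D1:**
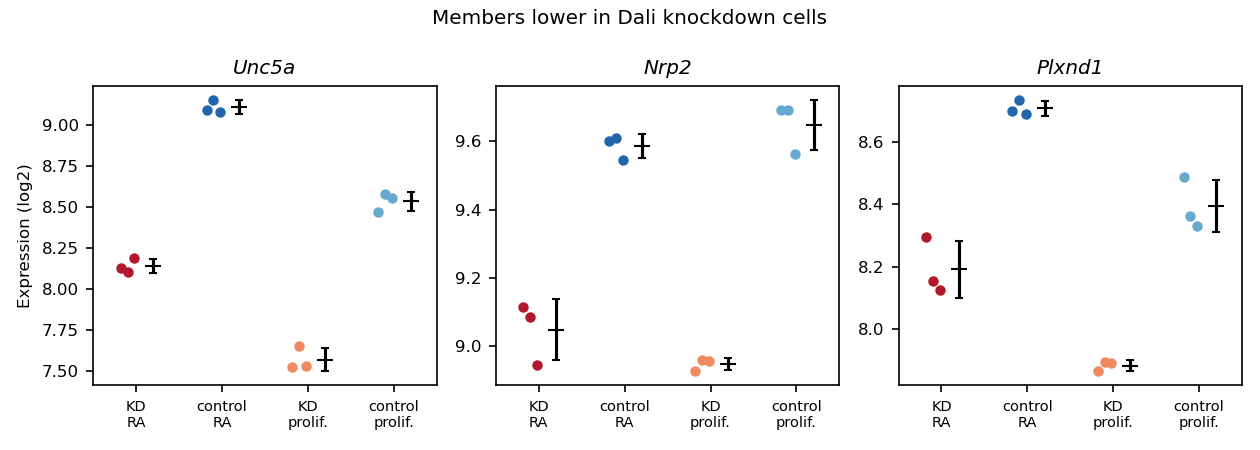
Expression of Unc5a, Nrp2 and Plxnd1 (log2, vertical axes, a separate scale for each gene) on each of 12 arrays. Points are arrays in the groups KD after RA, control after RA, KD proliferating and control proliferating, and bars beside them give the mean and SD (n = 3). For each gene all KD arrays lie below all control arrays of the same state.

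The sequences before the start sites of these 3 genes are shown because all were called lower in KD cells. The series also concerns a partner of a DNA methyltransferase, an enzyme for which CpG dinucleotides are the substrate. Of the 70 members, 60 had promoters in the RefSeq table (GRCm38.p6), and the 250 bases before the start are printed 5′ to 3′ on the gene's strand, with CpG in capitals. They lie at chr13:54949161-54949410 (+) for Unc5a, chr1:62703067-62703316 (+) for Nrp2 and chr6:115995006-115995255 (-) for Plxnd1.
Unc5a: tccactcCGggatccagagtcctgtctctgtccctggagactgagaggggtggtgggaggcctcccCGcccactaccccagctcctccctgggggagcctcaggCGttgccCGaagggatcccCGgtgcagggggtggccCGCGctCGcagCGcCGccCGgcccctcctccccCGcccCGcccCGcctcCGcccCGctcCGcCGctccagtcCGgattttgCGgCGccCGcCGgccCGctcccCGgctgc
Nrp2: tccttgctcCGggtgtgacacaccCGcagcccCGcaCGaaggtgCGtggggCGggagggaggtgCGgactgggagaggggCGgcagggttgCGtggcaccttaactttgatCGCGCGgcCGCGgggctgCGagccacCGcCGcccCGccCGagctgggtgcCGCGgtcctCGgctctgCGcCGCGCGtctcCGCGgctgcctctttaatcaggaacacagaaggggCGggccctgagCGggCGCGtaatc
Plxnd1: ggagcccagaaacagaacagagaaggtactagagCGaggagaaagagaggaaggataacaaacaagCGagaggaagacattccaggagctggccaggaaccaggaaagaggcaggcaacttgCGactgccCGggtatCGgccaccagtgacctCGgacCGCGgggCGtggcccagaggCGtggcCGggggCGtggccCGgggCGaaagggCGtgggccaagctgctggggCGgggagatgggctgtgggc

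The window of Unc5a held 25 CpG, that of Nrp2 32 and that of Plxnd1 16, with a GC content of 76.8%, 72.4% and 64.8%. Over 32851 promoter windows of the same length the median was 6 CpG, and over the 76 windows of members off chromosome 18 it was 15. A share of 89.3% of all windows held fewer CpG than Unc5a, 95.4% fewer than Nrp2 and 74.6% fewer than Plxnd1. Within the member windows these shares were 80.3%, 93.4% and 51.3%. The 15 windows of called members had a median of 12 CpG. The octamer of POU factors, ATGCAAAT on either strand, was in none of the 3 windows and in 1.6% of all windows. AGGTCA, the core element of retinoid receptors, on either strand, was in the Plxnd1 window and in 14.0% of all windows. These are matches of letters, and methylation was not measured on these arrays.

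Apart from these 3 receptors themselves, no member that is a ligand or co-receptor of them was called. Of the wider list given at the end, the netrin co-receptor gene Dscam and the neuropilin partner gene Nrcam were. For Unc5a, the netrin genes Ntn1 and Ntn3 differed by -0.25 ± 0.06 and -0.28 ± 0.07 after RA and by -0.08 ± 0.06 and -0.13 ± 0.07 in proliferating cells, and the co-receptor gene Dcc by -0.13 ± 0.06 and -0.03 ± 0.06 in these states. Among class 3 semaphorins, Sema3f, the ligand of Nrp2, differed by 0.00 ± 0.06 after RA and -0.08 ± 0.06 in proliferating cells. Sema3e, the ligand of Plxnd1, differed by -0.04 ± 0.07 and 0.02 ± 0.07. Group means of Sema3e (5.69 to 5.72) and Dcc (5.93 to 6.06) lay below the array medians of 7.15 to 7.21, so flat values of these genes say little. In the rest of the Unc5 receptor family, named after their values were seen, Unc5b differed by -0.13 ± 0.05 after RA and -0.15 ± 0.05 in proliferating cells, Unc5c by -0.11 ± 0.04 and 0.18 ± 0.04, and Unc5d by 0.05 ± 0.06 and -0.04 ± 0.06. Among netrins and their receptors, a difference as large as that of Unc5a was thus measured in no other member.

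Below the 1.3-fold line, several plexins, class 6 semaphorins and a Slit had an adjusted p under 0.05. Plxnb2, a receptor for class 4 semaphorins, differed by -0.34 ± 0.05 after RA (limma adjusted p = 0.000169) and -0.33 ± 0.05 in proliferating cells (adjusted p = 0.000244). Plxna1, a signalling partner of neuropilins, differed by -0.29 ± 0.04 after RA (adjusted p = 0.000323) and -0.37 ± 0.04 in proliferating cells (adjusted p = 7.02e-05). Plxna4, a further neuropilin partner, differed by -0.31 ± 0.04 after RA (adjusted p = 0.000241) and -0.11 ± 0.04 in proliferating cells (adjusted p = 0.0701). KD arrays of these 3 plexins lay below the control arrays without overlap in both states. With 3 arrays a group this does not set a gene apart. Members with changes near 0 did not overlap either, such as Epha4 (0.04) and Sema4b (-0.07) in proliferating cells. Sema6d and Sema6a, membrane semaphorins named after their values were seen, differed by -0.30 ± 0.05 (limma adjusted p = 0.000658) and -0.28 ± 0.06 (adjusted p = 0.00282) after RA and by -0.19 ± 0.05 (adjusted p = 0.00997) and -0.19 ± 0.06 (adjusted p = 0.0205) in proliferating cells. Slit2, a repellent ligand of Robo receptors, likewise differed by -0.22 ± 0.05 after RA (adjusted p = 0.0026) and -0.25 ± 0.05 in proliferating cells (adjusted p = 0.00125). Efna1, an ephrin-A ligand, stood at -0.12 ± 0.09 after RA (adjusted p = 0.334) and -0.25 ± 0.09 in proliferating cells (adjusted p = 0.0535).

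The 3 calls were 8.82% of the 34 members in the filtered test in each state, all lower. After RA, 4.0% of all tested genes were called lower and 3.71% higher in KD cells, and in proliferating cells 3.0% were called lower and 3.96% higher. Without the variance filter the members' share was 4.29% in each state (3 of 70, all lower), against 3.87% of all 19938 genes after RA and 3.47% in proliferating cells, in either direction. With each array centred on its median, 33.9% of all calls after RA were of higher genes in place of 48.1%, and the calls of Unc5a, Nrp2 and Plxnd1 stood.

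By adjusted p alone, without a fold line or filter, 15 of 70 members were lower in KD cells after RA (21.4%, against 12.1% of all genes) and 1 was higher (1.43%, against 9.46%). In proliferating cells 11 were lower (15.7%, against 7.84%) and 2 were higher (2.86%, against 10.7%). The single higher member after RA was Plxna3 (0.25 ± 0.04), and those in proliferating cells were Slit3 (0.22 ± 0.04), a Slit ligand, and Unc5c (0.18 ± 0.04). The median change over the 70 members was -0.09 after RA, beside -0.03 over all genes, and -0.06 in proliferating cells, beside -0.01.

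Other groups moved within narrow bounds in KD cells. Some of their genes had group means below the array medians of 7.15 to 7.21, such as Sema3a (5.22 to 5.36) and Epha5 (5.07 to 5.18). Small changes of such genes say little. Class 3 semaphorins lay between -0.06 and 0.11 after RA and between -0.13 and 0.03 in proliferating cells, and class 4 to 7 semaphorins between -0.30 and 0.18 and between -0.19 and 0.01. Ephrin-A and ephrin-B ligands together ranged from -0.15 to 0.14 after RA and from -0.25 to 0.23 in proliferating cells, and EphA and EphB receptors from -0.16 to 0.15 and from -0.18 to 0.04. Slits ranged from -0.22 to 0.05 and from -0.25 to 0.22, and Robos from -0.23 to 0.00 and from -0.13 to 0.08. No ligand gene and no Robo or Eph receptor gene was called.

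**Figure D2:**
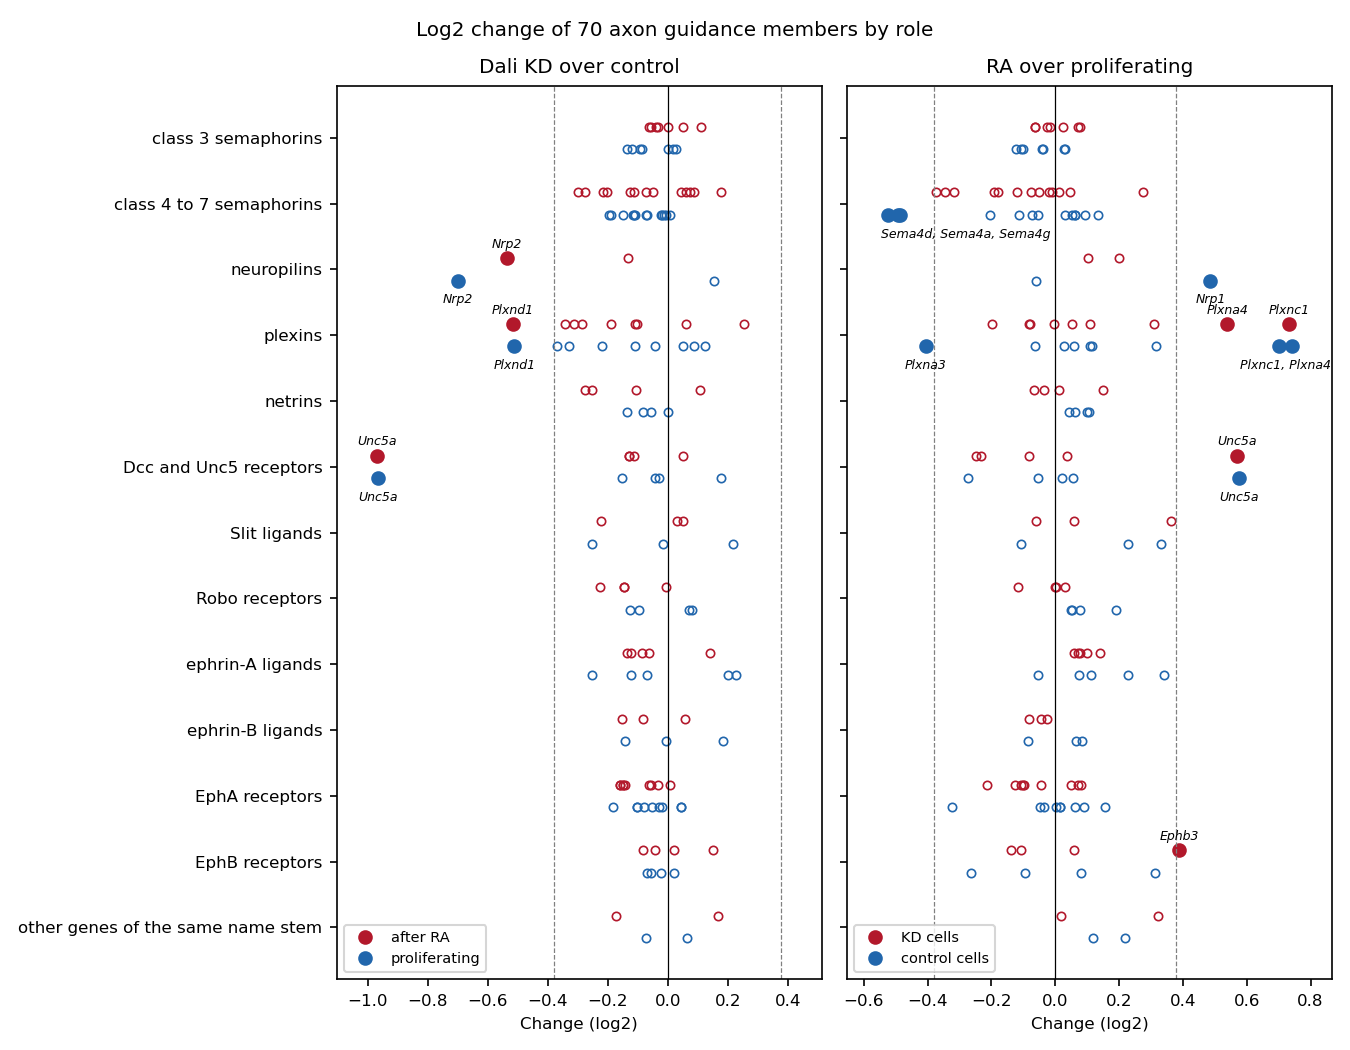
Log2 change (horizontal axes) of the 70 members by role (rows). The left panel gives KD over control after RA (red) and in proliferating cells (blue), and the right panel RA over proliferating in KD cells (red) and in control cells (blue). Filled, named points were called, open points were not, and dashed lines mark 1.3-fold. Only Unc5a, Nrp2 and Plxnd1 are filled on the left, all below 0.

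The second question was which guidance genes responded to RA. Plxna4, Plxnc1 and Unc5a rose in both kinds of cell, Ephb3 was called higher in KD cells and Nrp1 in control cells, and 4 members were called lower in control cells and none in KD cells. The differences between these responses were tested separately and are given below. Both RA comparisons use the same arrays as the KD comparisons.

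Plxna4, a plexin that signals for class 3 and class 6 semaphorins, rose most in control cells. Its level was 10.78, 10.73 and 10.73 in RA-treated KD cells, against 10.16, 10.22 and 10.25 in proliferating KD cells. Control cells had 11.07, 11.05 and 11.05 after RA and 10.38, 10.28 and 10.29 while proliferating. RA-treated arrays lay above proliferating arrays throughout, and the RA-treated control arrays lay above the RA-treated KD arrays. The change was 0.54 ± 0.04 in KD cells (1.45-fold, limma adjusted p = 2.43e-06) and 0.74 ± 0.04 in control cells (1.67-fold, adjusted p = 2.27e-07).

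Plxnc1, the plexin bound by the membrane-anchored semaphorin Sema7a, rose in both kinds of cell. The levels were 11.01, 11.08 and 11.04 in RA-treated KD cells and 10.25, 10.42 and 10.27 in proliferating KD cells. In control cells they were 11.24, 11.30 and 11.17 after RA and 10.53, 10.54 and 10.53 without it. No RA-treated array overlapped a proliferating one. The change was 0.73 ± 0.05 in KD cells (1.66-fold, adjusted p = 1.02e-06 in limma) and 0.70 ± 0.05 in control cells (1.63-fold, adjusted p = 1.4e-06). Sema7a itself differed by -0.12 ± 0.10 in KD cells and 0.06 ± 0.10 in control cells and did not pass the filter. Its group means of 6.22 to 6.42 lay below the array medians.

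Unc5a rose by 0.57 ± 0.05 in KD cells (1.49-fold, adjusted p = 5.79e-06 in limma) and by 0.57 ± 0.05 in control cells (1.49-fold, adjusted p = 5.16e-06), from the array levels given above. The interval of the difference between these responses ran from -0.16 to 0.16. Plxnd1 stayed under the fold line, at 0.31 ± 0.06 in KD cells (adjusted p = 0.00102) and 0.31 ± 0.06 in control cells (adjusted p = 0.000989). Nrp2 differed by 0.10 ± 0.05 in KD cells (adjusted p = 0.182) and -0.06 ± 0.05 in control cells (adjusted p = 0.447), and its RA-treated and proliferating arrays overlapped in both.

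Nrp1, the neuropilin that takes up Sema3a, had levels of 10.01, 9.93 and 9.78 in RA-treated KD cells and 9.75, 9.72 and 9.66 in proliferating KD cells. In control cells it had 10.07, 9.97 and 10.08 after RA and 9.59, 9.57 and 9.50 without it. It was called higher in control cells (0.49 ± 0.06, 1.40-fold, limma adjusted p = 8.52e-05) and in KD cells changed by 0.20 ± 0.06 (1.15-fold, adjusted p = 0.0249). Sema3a, not in the filtered test and with group means of 5.22 to 5.36, changed by 0.08 ± 0.11 in KD cells and -0.11 ± 0.11 in control cells.

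Ephb3, a receptor for ephrin-B ligands, stood near the fold line in both. Its levels were 6.98, 7.05 and 6.93 in RA-treated KD cells and 6.64, 6.63 and 6.52 in proliferating KD cells, and 7.06, 6.92 and 6.92 after RA and 6.69, 6.69 and 6.58 without it in control cells. The arrays did not overlap. The change was 0.39 ± 0.06 in KD cells (1.31-fold, limma adjusted p = 0.000254) and 0.31 ± 0.06 in control cells (1.24-fold, adjusted p = 0.00122). The call in KD cells was lost at 0.36 with the arrays centred on their medians, at 0.35 without proliferating KD replicate 3 and at 0.36 without RA-treated KD replicate 2. Its ligand genes Efnb1, Efnb2 and Efnb3 changed by -0.08 to -0.03 in KD cells and by -0.09 to 0.08 in control cells. Group means of Ephb3 (6.60 to 6.98) and of these ligand genes (6.81 to 7.14) lay below the array medians. Changes of such weakly read genes are less certain.

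Members called lower in control cells were 3 class 4 semaphorins and 1 plexin. Sema4d, a ligand of Plxnb1 and Plxnb2, had levels of 9.32, 9.42 and 9.49 in RA-treated KD cells, 9.82, 9.82 and 9.71 in proliferating KD cells, 9.37, 9.45 and 9.29 in RA-treated control cells and 9.89, 9.91 and 9.88 in proliferating control cells. RA-treated arrays were the lower ones in each pair of groups without overlap. The change was -0.37 ± 0.06 in KD cells (1.29-fold lower, adjusted p = 0.00037 in limma, just short of the fold line) and -0.53 ± 0.06 in control cells (1.44-fold lower, adjusted p = 2.67e-05).

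Sema4d had a second probe set, which changed by -0.05 in KD cells and -0.21 in control cells, and with the mean of both the change in control cells was -0.37 and no longer called. In KD cells the probe set used passed the fold line at -0.40 with centred arrays, at -0.41 without proliferating KD replicate 3 or without RA-treated KD replicate 3, and at -0.38 without RA-treated KD replicate 2. The gene thus sat at the line in KD cells whichever way it was called.

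Sema4a and Sema4g, membrane semaphorins of the same class, changed by -0.32 ± 0.08 (limma adjusted p = 0.0076) and -0.19 ± 0.07 (adjusted p = 0.0452) in KD cells and by -0.49 ± 0.08 (adjusted p = 0.000489) and -0.49 ± 0.07 (adjusted p = 0.000186) in control cells. Sema4a ranged from 7.50 to 7.63 in RA-treated KD cells, from 7.82 to 7.93 in proliferating KD cells, from 7.34 to 7.65 in RA-treated control cells and from 7.88 to 8.08 in proliferating control cells. Sema4g ranged from 7.201 to 7.29, from 7.40 to 7.52, from 6.94 to 7.15 and from 7.45 to 7.66 in the same order. Neither gene's RA-treated arrays overlapped its proliferating arrays. Sema4b, of the same class, was not called and changed by -0.35 ± 0.05 in KD cells (adjusted p = 0.000172) and -0.21 ± 0.05 in control cells (adjusted p = 0.00599).

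Plxna3, an X-linked plexin that pairs with neuropilins, had levels of 10.08, 10.06 and 10.17 in RA-treated KD cells and 10.33, 10.32 and 10.26 in proliferating KD cells, against 9.85, 9.89 and 9.81 after RA and 10.27, 10.27 and 10.23 without it in control cells. The change was -0.20 ± 0.04 in KD cells (1.15-fold lower, limma adjusted p = 0.00413) and -0.40 ± 0.04 in control cells (1.32-fold lower, adjusted p = 2.78e-05). RA thus went with higher Plxna4 and Plxnc1 and lower Plxna3, plexins of 1 family. The class 4 semaphorin receptors Plxnb1 and Plxnb2 changed by 0.05 ± 0.04 and -0.08 ± 0.05 in KD cells and by 0.12 ± 0.04 and -0.06 ± 0.05 in control cells, and neither was called.

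**Figure D3:**
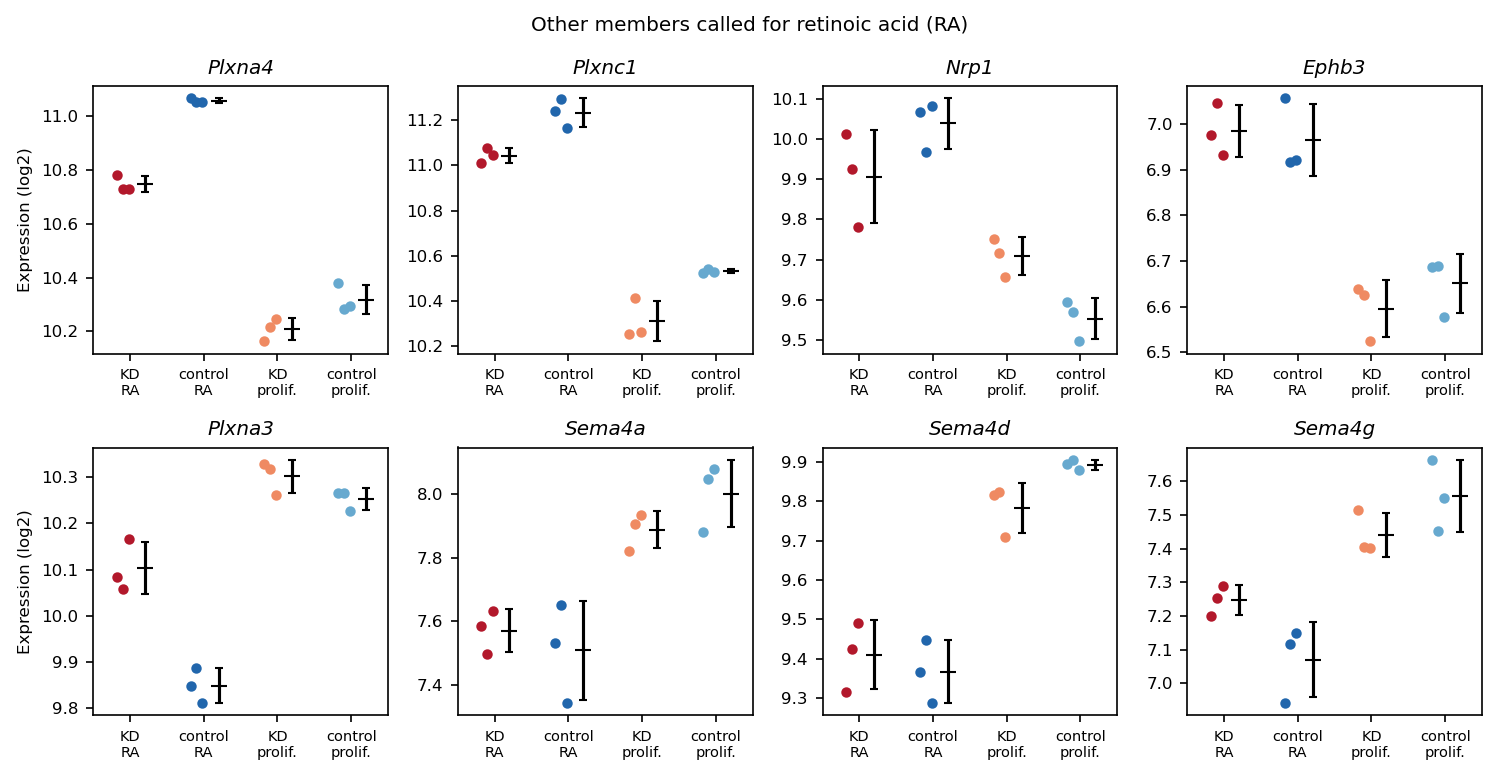
Expression of the 8 other members called in an RA comparison (log2, vertical axes, a separate scale for each gene) on each array. Points are arrays in the groups KD after RA, control after RA, KD proliferating and control proliferating, with the mean and SD (n = 3) beside them. Plxna4, Plxnc1, Nrp1 and Ephb3 are higher after RA than before it, and Plxna3, Sema4a, Sema4d and Sema4g lower.

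Slit2 had one of the larger uncalled changes, at 0.36 ± 0.05 in KD cells (limma adjusted p = 7.35e-05) and 0.33 ± 0.05 in control cells (adjusted p = 0.000149), and its arrays did not overlap. In KD cells it passed the fold line at 0.40 with quantile normalisation repeated, at 0.39 with array weights and at 0.41 without RA-treated KD replicate 1. Efna2, an ephrin-A ligand, changed by 0.08 ± 0.07 in KD cells (adjusted p = 0.437) and 0.34 ± 0.07 in control cells (adjusted p = 0.00225). Robo1 to Robo4 changed by -0.12 to 0.03 in KD cells and by 0.05 to 0.19 in control cells, the netrins by -0.07 to 0.15 and by 0.04 to 0.11, and the class 3 semaphorins by -0.06 to 0.08 and by -0.12 to 0.03. None of these was called.

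Over all tested genes, 5.37% were called higher and 4.57% lower with RA in KD cells, and 5.58% higher and 3.76% lower in control cells. Of the 34 members tested, 11.8% were called higher and none lower in KD cells, and 11.8% higher and 11.8% lower in control cells. Without the filter 4 of 70 members (5.71%) were called in KD cells, against 4.97% of all genes, and 8 (11.4%) in control cells, against 4.65%. By adjusted p alone, 9 members were higher (12.9%, against 7.85% of all genes) and 8 lower (11.4%, against 13.1%) in KD cells, and 10 were higher (14.3%, against 8.68%) and 8 lower (11.4%, against 8.92%) in control cells. The median change over the 70 members was -0.01 in KD cells, as over all genes, and 0.05 in control cells, beside 0.00.

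The third question was whether RA acted differently in KD and control cells. No member was called for the interaction, which subtracts the RA response of control cells from that of KD cells, while 0.492% of all tested genes were called higher and 0.752% lower, and 0.466% in either direction without the filter. With arrays centred, 23.8% of all interaction calls were of higher genes, and with quantile normalisation repeated 57.9%, in place of 39.5%, and no member was called under either. At an unadjusted p under 0.05 there were 10 of 70 members (14.3%), against 14.8% of all 19938 genes.

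The largest interaction values were those of Robo1, a Slit receptor outside the filtered test (-0.31 ± 0.15), and of Sema4g (0.29 ± 0.10, limma adjusted p = 0.147, interval 0.08 to 0.51). Nrp1 stood at -0.29 ± 0.09 (adjusted p = 0.118, interval -0.48 to -0.10), Plxna4 at -0.20 ± 0.06 (adjusted p = 0.119, interval -0.34 to -0.07) and Plxna3 at 0.21 ± 0.06 (adjusted p = 0.121, interval 0.07 to 0.34). The response of Sema4g, Nrp1, Plxna4 and Plxna3 was smaller in size in KD cells, that of Robo1 had opposite signs (-0.12 ± 0.11 in KD cells and 0.19 ± 0.11 in control cells), and none of these differences passed the test. Unc5c, outside the filtered test, stood at -0.29 ± 0.06, which passed the adjusted p without the filter (0.0497) but not the fold line. Sema4a (0.18 ± 0.11, adjusted p = 0.45), Sema4d (0.15 ± 0.08, adjusted p = 0.362) and Ephb3 (0.08 ± 0.08, adjusted p = 0.693) were likewise not called, so the calls in 1 kind of cell alone are not shown to differ between them.

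Of the lowered receptors, Unc5a (0.00 ± 0.07) and Plxnd1 (-0.01 ± 0.08, interval -0.18 to 0.17) had interaction values near 0, and Nrp2 had 0.16 ± 0.08 (adjusted p = 0.301, interval -0.01 to 0.33). Plxnc1 had 0.03 ± 0.07, with an interval of -0.13 to 0.19. These intervals leave room for differences in the RA response of up to about the size of their bounds.

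**Figure D4:**
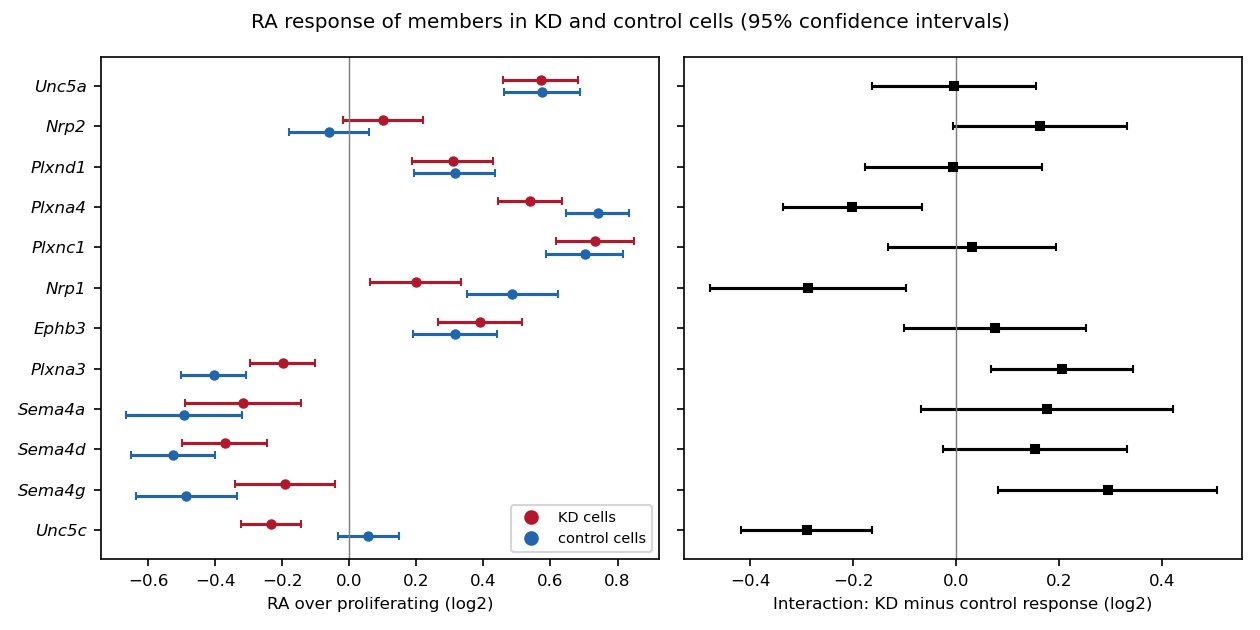
RA response of 11 called members and of Unc5c. The left panel gives the log2 change with RA in KD cells (red) and in control cells (blue), and the right panel the interaction, with 95% confidence intervals as bars (n = 3 arrays per group). Unc5a, Plxnd1 and Plxnc1 have interaction values near 0, and the values of Nrp1, Plxna4, Plxna3 and Sema4g were not called.

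Other genes of the guidance pathways were described by a list of 73 co-receptors, adhesion partners and cytoplasmic transducers, of which 68 were measured and 41 passed the filter. In KD cells 5 were called lower and none higher after RA, and 4 lower and 1 higher in proliferating cells. Without the filter these were 7.35% of the 68 in each state, against 3.87% of all genes after RA and 3.47% in proliferating cells. The list was drawn up with earlier results of these data known. It holds Nrcam and Dscam, which the paper already reports as differing in both states, so these shares are no test of the pathway. Nrcam, an adhesion molecule that joins neuropilin complexes, was lowest, at -1.12 ± 0.09 after RA and -1.19 ± 0.09 in proliferating cells, and Dscam, a netrin co-receptor, was at -0.49 ± 0.07 and -0.45 ± 0.07. Vav3 was called lower in both states (-0.54 ± 0.05 and -0.79 ± 0.05), Arhgef11 (-0.40) and Trio (-0.39) after RA, and Mical2, of the plexin-linked actin oxidases, in proliferating cells (-0.40). Rasa1, a Ras GTPase-activating protein, was the 1 called higher (0.39).

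With RA, Enah, an actin regulator at the leading edge, rose by 0.45 ± 0.05 in KD cells and 0.44 ± 0.05 in control cells. L1cam, an adhesion co-receptor (-0.52 and -0.51), Dscaml1 (-0.61 and -0.44) and Mical2 (-0.44 and -0.76) were called lower in both. The growth cone genes Gap43 (-0.41) and Dpysl3 (-0.40) were called lower in KD cells, and Neo1, a Dcc relative that binds netrins (-0.45), in control cells. Without the filter the RA calls were 8.82% of the 68 in KD cells, against 4.97% of all genes, and 7.35% in control cells, against 4.65%. None of the 41 was called for the interaction.

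The chromosomal neighbours of the lowered receptors did not share their size of change. The median over the 50 nearest protein-coding genes was -0.10 after RA and -0.03 in proliferating KD cells around Unc5a, -0.02 and -0.02 around Nrp2, and -0.02 and -0.01 around Plxnd1.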

How the data were processed

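RNA of 12 samples of N2A cells was measured on single-colour Affymetrix arrays, 1 array per sample. The deposited table holds log2 expression levels of the probe sets, which the authors made by RMA background correction, quantile normalisation and gene-level summary, so the arrays share a scale. RMA and limma are named in the submitters' processing notes, without versions. The sources used here give neither scan dates nor batches, and precision is limited by having 3 arrays in a group.

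A single gene symbol was assigned to 21789 of 35556 probe sets, and each of 19938 genes was represented by its probe set of largest interquartile range. The study's methods name a variance cut-off, read here as dropping the lower 50% of genes by interquartile range. The 4 group means were fitted over 12 arrays with limma 3.58.1 (lmFit, contrasts.fit, eBayes) under R 4.3.3 with no term for the replicate number, and p-values are two-sided and adjusted by Benjamini-Hochberg over all genes tested. SE is the standard error of this fit, and intervals are at 95%. The script was tested on simulated data.

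The members, gene lists, marker lists and tests were chosen with earlier results of these data known. Named were all called members, the 2 largest uncalled changes of each comparison, binding partners of called members and genes whose probe sets disagreed. A few others were named after their values were seen, and the rest are given by counts and ranges. Gene order came from RefSeq (GRCm38.p6), while no source used here states the build of the array annotation. Alternatives covered the filter, the choice of probe set, scaling, array weights, an intensity trend, the samples fitted, the fold line, a replicate block and leaving out each of 12 arrays. Promoter windows came from the RefSeq table of 250 bases before the start.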

Additional observations from a re-analysis of the deposited data

Results flagged for a closer look

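Unc5c, a netrin receptor of the same family as Unc5a, stood out because its RA response differed between KD and control cells by a test of the difference itself. The interaction was -0.29 ± 0.06 (log2, SE), with a limma adjusted p of 0.0497 over all genes without the variance filter, which the gene did not pass, and it was under the 1.3-fold line. The response was -0.23 ± 0.04 in KD cells and 0.06 ± 0.04 in control cells. RA-treated KD arrays read 10.63, 10.56 and 10.52, and RA-treated control arrays 10.65, 10.69 and 10.71. Proliferating KD arrays read 10.83, 10.79 and 10.79, and proliferating control arrays 10.63, 10.62 and 10.63. KD arrays thus lay below control arrays after RA and above them in proliferating cells.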

How the results depend on the processing

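Of the 18 member calls, counted over comparisons, 16 stood under every one of the 22 alternatives. The other 2, Sema4d with RA in control cells and Ephb3 with RA in KD cells, are described above, and no called value changed sign. Without the fold line, by adjusted p among the filtered genes, 14 members in place of 3 were called for KD against control after RA, 11 in place of 3 in proliferating cells, 15 in place of 4 for RA in KD cells and 17 in place of 8 for RA in control cells. No share of all filtered genes under this rule is given, so these counts are not read as a trait of the members. Shares by adjusted p alone without the filter are given above. Leaving out 1 array at a time gave 3 members for KD against control in each state, 4 to 6 for RA in KD cells, 8 to 9 for RA in control cells and 0 for the interaction. Beyond the members named above, Plxna1 was called lower in proliferating KD cells with quantile normalisation repeated (-0.39), Plxnb2 in KD cells after RA with centred arrays (-0.38), Sema4b with RA in KD cells without RA-treated KD replicate 1 (-0.38), and Efna2 was called higher with RA in control cells without proliferating control replicate 1 (0.39). Arrays of the same replicate number deviated together weakly at most (18 pairs, r of -0.09 to 0.22, median 0.02, of which 5 were above 0.1). Among 36 pairs of different number, r was -0.23 to 0.14 (median -0.02) and 3 were above 0.1. The fit with the replicate block gave the same counts of 3, 3, 8, 4 and 0 calls and lost none. With 3 arrays a group, small changes of weakly expressed members are the least certain.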

Other observations

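Second probe sets of members gave values that did not enter the main fit, only the alternative with the mean of a gene's probe sets. For Epha10, an EphA receptor gene, the unused probe set changed with RA by -0.02 in KD cells and -0.15 in control cells, beside -0.21 and -0.32 for the one used. For Unc5d, a netrin receptor gene, the unused probe set differed between KD and control cells by -0.06 after RA and 0.01 in proliferating cells, beside 0.05 and -0.04. The unused probe set of Ephb1 changed by -0.04 and -0.03 with RA in KD and control cells, beside -0.11 and -0.09. The probe sets of Sema6b held identical values.

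The neighbours of members called for RA were near 0 with RA as well. The median over the nearest protein-coding genes was -0.02 in KD cells and 0.00 in control cells around Plxnc1, -0.05 and -0.03 around Plxna4, -0.01 and 0.02 around Nrp1 (27 genes), -0.02 and 0.02 around Plxna3, and -0.08 and 0.03 around Sema4d.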
